A study of Mus musculus with 2 samples.

Results

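The genes described here encode exchangers and cotransporters that move bicarbonate, chloride, sulfate, protons, sodium, potassium and calcium across epithelial membranes. They were every gene whose symbol begins with Slc4a, Slc8a, Slc9a, Slc12a or Slc26a, 45 of the 25668 genes in each deposited table. The prefixes take 42 transporter genes and 3 genes of associated proteins that are no transporters (Slc4a1ap, Slc9a3r1 and Slc9a3r2), which are given apart. RNA came from organoids of mouse fallopian tube (oviduct) epithelium in 2 groups of 1 library each: Trp53 KO, in which the gene of the tumour suppressor p53 was knocked out, and a control of normal organoids with the genotype label WT. The control organoids were established from a mouse that carries a Cas9 and EGFP transgene at the Gt(ROSA)26Sor locus, and both libraries have the treatment label Conditioned medium. With 1 library per group no test between genotypes can be made, and every difference below compares these 2 libraries, with no replicate check.

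Oviduct epithelium sets the volume and the bicarbonate content of the fluid in which gametes and embryos travel. In secretory epithelia in general, a basolateral sodium-potassium-chloride cotransporter and sodium-bicarbonate cotransporters load the cell, apical chloride channels and SLC26 anion exchangers let chloride and bicarbonate out, and sodium-proton exchangers of the SLC9 family extrude acid or, on organelles, set the pH inside them. Carbonic anhydrases supply bicarbonate and protons from CO2, and the sodium pump drives the whole system.

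Values are TPM, a level per gene length that can be compared between genes. Differences are log2(TPM + 1) in the Trp53 KO library minus the control library. Genes with a mean of at least 1 TPM over both libraries are called measured, and a measured gene is called higher or lower from 2-fold upward, judged on that scale. Ratios are TPM in the Trp53 KO library over TPM in the control library, without a pseudocount, followed by an exact Clopper-Pearson interval at 95%. These intervals and the floors used below cover counting error only. The read numbers behind them were recovered or estimated from the TPM values and summed to 27688375 in the Trp53 KO library and 100099571 in the control library, so low genes are known less well in the Trp53 KO library. Trp53 itself was at 2.42 TPM in the Trp53 KO library and 83.2 TPM in the control library. The simple epithelial markers Epcam and Krt8 were at 697 and 1554 TPM in Trp53 KO and at 713 and 1984 TPM in control, and Pax8, a transcription factor of oviduct secretory cells, was at 46.0 TPM in Trp53 KO and 44.8 TPM in control. All 8 measured genes of 9 listed for basal and squamous epithelium were higher, with a summed level of 4848 TPM in the Trp53 KO library and 73.0 TPM in the control library, and Dsc3 was listed at 0 in both. All 10 measured genes of 15 listed for multiciliated cells were lower, at a summed 80.8 TPM in the Trp53 KO library against 396 TPM in the control library, and 9 of the 15 were at 0 in the Trp53 KO library, among them Tppp3, Ccdc153 and Tekt1. Foxj1, the transcription factor of multiciliated cells, was at 52.7 TPM in the Trp53 KO library and 116 TPM in the control library. Of the oviduct secretory list, which includes Pax8, 3 of 6 measured genes were lower and 0 higher. The lower ones were Ovgp1 (0.192 TPM in Trp53 KO, 7.44 TPM in control), Wt1 (7.85 and 35.3 TPM) and Muc1 (393 and 805 TPM). Among 6 simple epithelial markers 2 were higher and 0 lower. The higher ones were Krt19 (8176 TPM in Trp53 KO, 2313 TPM in control) and Cldn3 (428 and 203 TPM). Markers of stroma, smooth muscle, endothelium and red cells had no measured gene, those of immune cells had 1 (Cd68, 16.0 TPM in Trp53 KO and 25.5 TPM in control) and those of neurons had 1 (Tubb3, 0.514 TPM in Trp53 KO and 3.08 TPM in control). The part of these marker changes in the transporter differences below was not tested, and in such bulk libraries fewer cells of a type and less RNA per cell cannot be told apart.

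Of the 45 genes 24 were measured, 21 of them transporters. In the Trp53 KO library 2 measured members (8.33%) were at least 2-fold higher, Slc4a11 and Slc26a9, and 7 (29.2%) were at least 2-fold lower, Slc9a2, Slc26a2, Slc12a4, Slc9a3r2, Slc4a4, Slc12a8 and Slc12a2. Over all 11228 measured genes 8.35% were higher and 15.3% lower. The share of higher members is thus near that of all genes, and the share of lower members is above it by a margin that rests on few genes. The counting interval lay wholly beyond 2-fold for 2 of the 24 measured members on the higher side and 7 of the 24 on the lower side, beside 8.35% and 15.4% of the 10995 measured genes with an interval. The median difference was −0.24 over the measured members and −0.17 over all measured genes. Rescaling by the median ratio brought the median of all genes to 0.00 and quantile normalization to 0.03, with 1218 higher and 1448 lower genes under the first and 1292 higher and 1321 lower genes under the second. The same 9 members were called under both of these scalings. With a pseudocount of 5 in place of 1 both higher members fell short of 2-fold, as did Slc9a2, Slc4a4 and Slc12a8.

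The families differed in how their members were placed. All Slc12a transporters together summed to 51.4 TPM in the Trp53 KO library and 121 TPM in the control library. The 10 Slc4a transporters summed to 49.3 and 42.5 TPM, the 9 Slc9a transporters to 29.1 and 34.3 TPM, and the 11 Slc26a transporters to 43.6 and 56.3 TPM, each in the Trp53 KO library and then the control library. Slc12a2, Slc26a4 and Slc4a2 were, in this order, the transporter genes with the highest TPM in both libraries. Below them the order changed: the next place was held by Slc4a7 in the Trp53 KO library and by Slc26a2 in the control library.

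**Figure D1:**
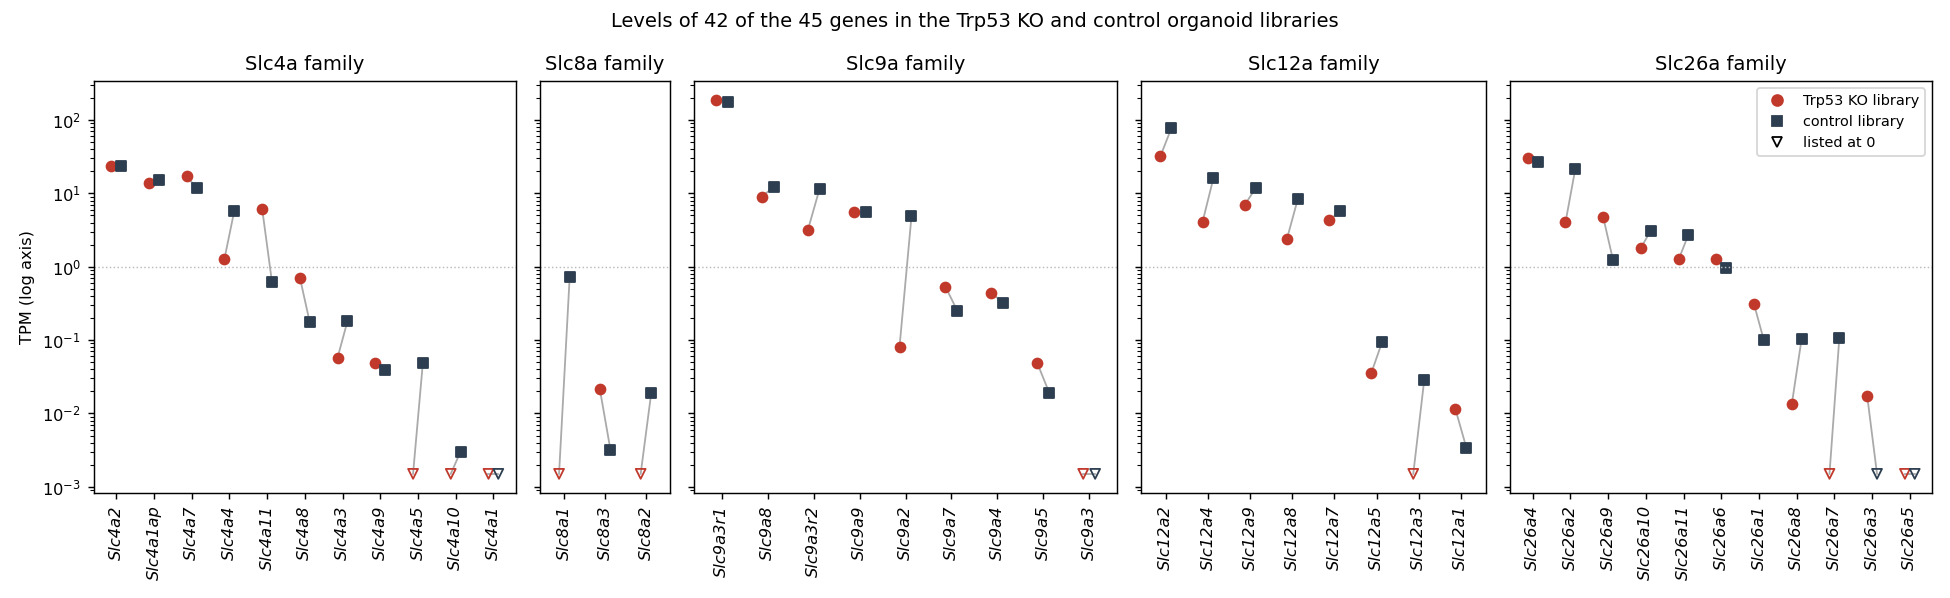
TPM of 42 of the 45 genes on a log axis, by family and in order of mean level, with circles for the Trp53 KO library, squares for the control library and open triangles for genes listed at 0. The dotted line marks 1 TPM. The steepest connecting lines among the measured genes belong to Slc9a2 (0.0815 TPM in Trp53 KO, 4.85 TPM in control) and Slc4a11 (6.10 TPM in Trp53 KO, 0.615 TPM in control).

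**Figure D2:**
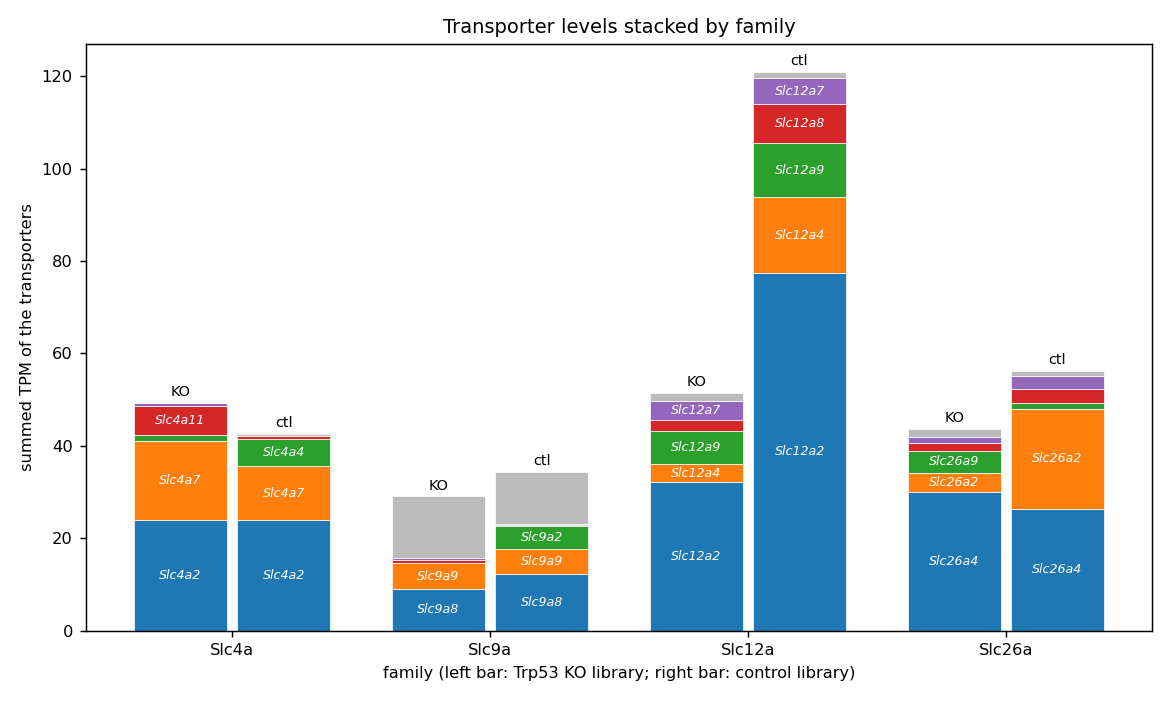
Summed TPM of the transporters of 4 families, stacked by gene (up to 5 of the higher genes of a family in colour, the others in grey), with the Trp53 KO library as the left bar and the control library as the right bar. The Slc12a bar stands at 51.4 TPM in the Trp53 KO library and 121 TPM in the control library, and Slc12a2 makes up 62.5% and 64.1% of it.

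Promoter windows are shown for the higher anion transporter Slc26a9 and for 2 lower genes, Slc12a4 and Slc4a4, the last with both of its listed start sites, since they are the higher and the lower transporter genes with the largest differences among those in the promoter table. The windows run from 250 bases before to 50 bases after the start, 5′ to 3′ on the strand of the gene, and come from RefSeq on GRCm38.p6, an earlier build than GRCm39, which the deposited values use. The table holds 42 windows for 33 of the 45 genes. The windows are chr1:131743772-131744071 on the plus strand for Slc26a9, chr8:105966066-105966365 on the minus strand for Slc12a4, and chr5:88887010-88887309 and chr5:89027716-89028015 on the plus strand for Slc4a4. Capitals mark every match, on either strand, to the GC box GGGCGG, to the CCAAT box CCAAT or to the p53 half-site, of which a full p53 site holds a pair.
Slc26a9: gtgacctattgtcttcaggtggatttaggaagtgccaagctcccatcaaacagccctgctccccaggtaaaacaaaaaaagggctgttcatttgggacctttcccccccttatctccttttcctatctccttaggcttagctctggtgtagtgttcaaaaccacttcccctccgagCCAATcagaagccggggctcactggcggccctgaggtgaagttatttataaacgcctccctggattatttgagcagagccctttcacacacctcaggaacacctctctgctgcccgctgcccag
Slc12a4: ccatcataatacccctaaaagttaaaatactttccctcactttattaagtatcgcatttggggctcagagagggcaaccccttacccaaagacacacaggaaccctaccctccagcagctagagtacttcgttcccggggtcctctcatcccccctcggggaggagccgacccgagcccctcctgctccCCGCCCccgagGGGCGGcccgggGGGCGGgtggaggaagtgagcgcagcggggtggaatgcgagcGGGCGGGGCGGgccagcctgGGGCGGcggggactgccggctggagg
Slc4a4, upstream start: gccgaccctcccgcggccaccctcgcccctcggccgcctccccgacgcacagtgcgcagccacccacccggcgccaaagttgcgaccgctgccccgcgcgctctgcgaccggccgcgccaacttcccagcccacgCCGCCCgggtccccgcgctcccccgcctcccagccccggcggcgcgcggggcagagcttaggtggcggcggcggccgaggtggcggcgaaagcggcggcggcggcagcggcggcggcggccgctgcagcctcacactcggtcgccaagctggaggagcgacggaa
Slc4a4, downstream start: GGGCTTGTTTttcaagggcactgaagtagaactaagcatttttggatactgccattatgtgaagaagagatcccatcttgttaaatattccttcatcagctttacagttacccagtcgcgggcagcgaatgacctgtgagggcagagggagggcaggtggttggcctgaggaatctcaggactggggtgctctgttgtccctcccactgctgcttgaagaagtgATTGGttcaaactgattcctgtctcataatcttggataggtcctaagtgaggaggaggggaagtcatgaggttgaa
The Slc12a4 window held 6 GC boxes, some of which overlap each other, and no CCAAT box. The upstream Slc4a4 window held 1 GC box, 80.0% G and C bases and 50 CpG pairs, while the downstream one held no GC box, 48.3% G and C bases and 3 CpG pairs. The Slc26a9 window held 1 CCAAT box and no GC box. The downstream Slc4a4 window also held 1 CCAAT box on the other strand and 1 match to the p53 half-site, the only one among the 42 windows of the family members. Of all 32851 windows of this length 35.7% held a GC box, 37.4% a CCAAT box and 8.36% a p53 half-site. Single GC box and CCAAT box matches are thus common, and p53 half-site matches less so. Among the 42 windows of the members the shares were 50.0%, 42.9% and 2.38%. SLC4A4 is known to make kidney and pancreatic forms of its protein from separate promoters. The deposited values are 1 number per gene, so the use of each start was not measured.

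Cotransporters of chloride with sodium or potassium, the Slc12a family, had 0 higher and 3 lower members among 6 measured, with a median difference of −0.96. Over all measured genes 8.35% were higher and 15.3% lower. This and the other family counts below rest on few genes and are to be read beside those shares. Slc12a2, the sodium-potassium-chloride cotransporter that loads chloride through the basolateral membrane of secretory cells, was at 32.1 TPM in the Trp53 KO library and 77.5 TPM in the control library. Its ratio was 0.414 (0.400 to 0.429), and it was the highest of all 42 transporters in both libraries despite this difference. The kidney relatives of this gene were nearly silent: Slc12a1 was at 0.0115 TPM in the Trp53 KO library and 0.00341 TPM in the control library, and Slc12a3, the thiazide-sensitive sodium-chloride cotransporter, was listed at 0 in the Trp53 KO library and at 0.0285 TPM in the control library.

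The potassium-chloride cotransporters, which carry chloride out of the cell and take part in volume decrease, did not stand at the same ratio. Slc12a4, the widely expressed member, was at 4.08 TPM in the Trp53 KO library and 16.3 TPM in the control library, a ratio of 0.250 (0.221 to 0.283). Slc12a7 was at 4.27 TPM in the Trp53 KO library and 5.72 TPM in the control library, a ratio of 0.747 (0.668 to 0.834). Slc12a4 was thus well above Slc12a7 in the control library, while the pair stood at about the same level in the Trp53 KO library. The neuronal member Slc12a5 was at 0.0351 TPM in Trp53 KO and 0.0938 TPM in control.

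The 2 more distant Slc12a genes were also below their control levels. Slc12a8, reported in mouse as a transporter of nicotinamide mononucleotide, a role that is disputed, was at 2.37 TPM in the Trp53 KO library and 8.36 TPM in the control library, a ratio of 0.283 (0.235 to 0.338). Slc12a9 was at 6.97 TPM in the Trp53 KO library and 11.8 TPM in the control library, a ratio of 0.592 (0.532 to 0.658), which is short of the 2-fold mark.

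The Slc4a family had 1 higher and 1 lower member among 5 measured, with a median difference of 0.00. Most of its genes encode bicarbonate transporters, but the 5 include Slc4a1ap, which is no transporter. The 4 measured Slc4a transporters had 1 higher and 1 lower gene and a median difference of 0.26. The higher gene was Slc4a11, described below. Slc4a2, the chloride-bicarbonate exchanger of most epithelial basolateral membranes, was the leading member, at 24.0 TPM in the Trp53 KO library and 23.9 TPM in the control library, with a ratio of 1.001 (0.949 to 1.06). Its exons overlap those of Fastk on the opposite strand, and no source used here gives the strand setting of the counting. Fastk was at 20.5 TPM in Trp53 KO and 15.3 TPM in control. The sodium-bicarbonate cotransporters went apart. Slc4a4, the electrogenic member, was at 1.29 TPM in the Trp53 KO library and 5.78 TPM in the control library, a ratio of 0.223 (0.191 to 0.260). Slc4a7, the electroneutral member, was at 17.2 TPM in the Trp53 KO library and 11.7 TPM in the control library, a ratio of 1.46 (1.39 to 1.53), which does not reach 2-fold. Slc4a7 therefore exceeded Slc4a4 in both libraries and by far the most in the Trp53 KO library.

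Slc4a11 had the largest positive difference of all 24 measured members. It encodes a membrane protein best known from corneal endothelium, which conducts protons and, unlike most of its relatives, is not regarded as a bicarbonate transporter. Slc4a11 was at 6.10 TPM in the Trp53 KO library and 0.615 TPM in the control library, from 345 recovered reads in Trp53 KO and 117 in control. The ratio was 9.92 (8.02 to 12.3), and the difference of 2.14 lay at percentile 98.0 of all measured genes. Slc4a11 made up 12.4% of the summed TPM of Slc4a transporters in the Trp53 KO library and 1.45% in the control library. The gene lies on chromosome 2, whose 895 measured genes had a median difference of 0.20. Chromosome 4, at 0.63, was the only other chromosome with a positive median difference. Slc4a8, a sodium-driven chloride-bicarbonate exchanger, was at 0.708 TPM in the Trp53 KO library and 0.176 TPM in the control library, a ratio of 4.03 (3.15 to 5.16), and did not pass the filter on mean level.

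The remaining Slc4a genes were low. Slc4a3 was at 0.0579 TPM in the Trp53 KO library and 0.181 TPM in the control library, a ratio of 0.320 (0.128 to 0.681). Slc4a9 was at 0.0493 TPM in Trp53 KO and 0.0390 TPM in control, and Slc4a5 and Slc4a10 were listed at 0 in the Trp53 KO library and at 0.0490 and 0.00302 TPM in the control library. Slc4a1, the anion exchanger of red cells, was listed at 0 in both libraries, as were the globin genes Hba-a1 and Hbb-bs. A floor of 3 reads allows up to 0.0373 TPM of Slc4a1 in the Trp53 KO library and 0.0111 TPM in the control library. Slc4a1ap, which encodes kanadaptin, a nuclear protein named for its binding to the product of Slc4a1, was at 14.0 TPM in the Trp53 KO library and 15.4 TPM in the control library, a ratio of 0.908 (0.834 to 0.988).

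Anion transporters of the Slc26a family had 1 higher and 1 lower member among 6 measured, with a median difference of −0.18. Slc26a4, which encodes pendrin, an apical exchanger of chloride for bicarbonate or iodide, was at 30.1 TPM in the Trp53 KO library and 26.4 TPM in the control library, a ratio of 1.14 (1.08 to 1.21). Slc26a2, a sulfate transporter needed for the sulfation of proteoglycans, was at 4.03 TPM in the Trp53 KO library and 21.5 TPM in the control library, a ratio of 0.187 (0.172 to 0.204). Slc26a4 and Slc26a2 were thus far apart in the Trp53 KO library, with 69.2% and 9.25% of the summed TPM of the family, and close in the control library, with 46.9% and 38.2%.

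Slc26a9, which conducts chloride at the apical membrane of airway and stomach epithelium, was at 4.74 TPM in the Trp53 KO library and 1.24 TPM in the control library. The ratio was 3.83 (3.31 to 4.43), from an estimated 398 reads in Trp53 KO and 349 in control, and the difference of 1.36 lay at percentile 95.1 of all measured genes. Slc26a6, an apical exchanger of chloride for bicarbonate or oxalate, was at 1.26 TPM in the Trp53 KO library and 0.951 TPM in the control library, a ratio of 1.33 (1.04 to 1.69). The bicarbonate exchanger gene Slc26a3 was at 0.0173 TPM, 1 estimated read, in the Trp53 KO library and listed at 0 in the control library. Together Slc26a3, Slc26a4, Slc26a6 and Slc26a9 summed to 36.2 TPM in the Trp53 KO library and 28.6 TPM in the control library, most of it from Slc26a4.

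The other Slc26a genes were below the 2-fold mark or low. Slc26a11, a sulfate and chloride transporter, was at 1.26 TPM in the Trp53 KO library and 2.74 TPM in the control library, a ratio of 0.460 (0.345 to 0.603), and passed 2-fold on the log2 scale only with a pseudocount of 0.1. Slc26a10 was at 1.81 TPM in the Trp53 KO library and 3.11 TPM in the control library. Its exons overlap those of B4galnt1 on the opposite strand, at 92.3 TPM in Trp53 KO and 175 TPM in control, so the values of Slc26a10 are uncertain. Slc26a1, a sulfate and oxalate transporter, was at 0.307 TPM in the Trp53 KO library and 0.0996 TPM in the control library, a ratio of 3.08 (1.61 to 5.86). This low gene overlaps Idua on the opposite strand, at 1.28 TPM in Trp53 KO and 3.44 TPM in control. Slc26a8, a gene of the testis, was at 0.0133 TPM in Trp53 KO and 0.103 TPM in control. Slc26a7 was listed at 0 in the Trp53 KO library against 0.105 TPM in the control library. With a floor of 3 reads per library Slc26a7 was 3.21-fold lower, and its counting interval allowed a difference as small as 2.46-fold. Slc26a5, the motor protein gene of outer hair cells, was listed at 0 in both.

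**Figure D3:**
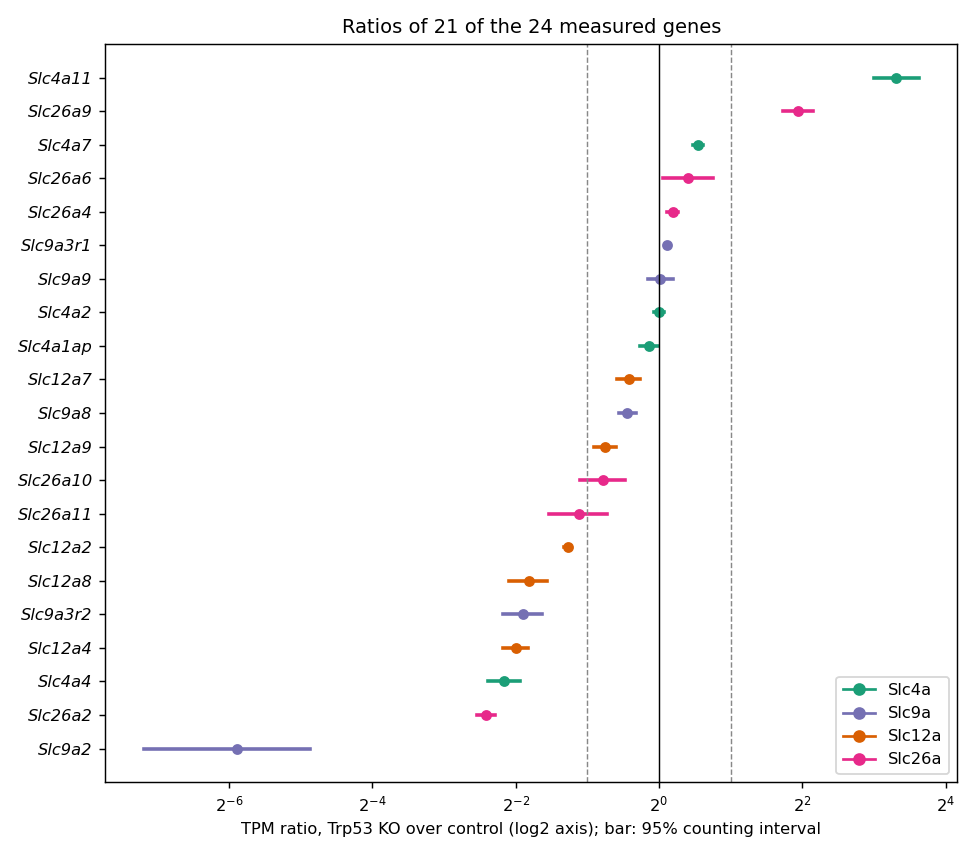
TPM ratio of the Trp53 KO over the control library for 21 of the 24 measured genes on a log2 axis, coloured by family, with bars for 95% counting intervals and dashed lines at 2-fold in each direction. Slc4a11 (9.92) and Slc26a9 (3.83) lie to the right of the upper dashed line, and Slc9a2 (0.0168) lies farthest to the left with the widest interval.

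The Slc9a family of sodium-proton exchangers and their scaffolds had 0 higher and 2 lower members among 7 measured, with a median difference of 0.02. Of the 2 lower members 1 was a transporter and 1 a scaffold. The 5 measured Slc9a transporters had 0 higher and 1 lower gene, also with a median difference of 0.02. Slc9a2, an exchanger of the apical membrane of gut and other epithelia, was at 0.0815 TPM in the Trp53 KO library and 4.85 TPM in the control library, from an estimated 7 reads in Trp53 KO and 1449 in control. The ratio was 0.0168 (0.00687 to 0.0343), the lowest of the 24 measured members, and the difference of −2.44 lay at percentile 3.70 of all measured genes. Slc9a4, an exchanger of stomach parietal cells, was at 0.442 TPM in Trp53 KO and 0.318 TPM in control, Slc9a5 was at 0.0485 TPM in Trp53 KO and 0.0192 TPM in control, and Slc9a3, the apical exchanger of intestine and kidney, was listed at 0 in both.

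Of the exchangers of organelles, Slc9a8, of the Golgi, was at 9.03 TPM in the Trp53 KO library and 12.3 TPM in the control library, a ratio of 0.736 (0.678 to 0.798). Slc9a9, of late endosomes, was at 5.59 TPM in the Trp53 KO library and 5.51 TPM in the control library, a ratio of 1.01 (0.896 to 1.15). Slc9a7, of the trans-Golgi network, was below the filter on mean level, at 0.534 TPM in the Trp53 KO library and 0.249 TPM in the control library, a ratio of 2.14 (1.22 to 3.68).

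The scaffolds that tether SLC9 and other transporters to the apical cytoskeleton were placed differently from each other. Slc9a3r1, also called NHERF1, was the most abundant of all 45 genes, at 189 TPM in the Trp53 KO library and 174 TPM in the control library, a ratio of 1.09 (1.06 to 1.12). Its paralog Slc9a3r2 was at 3.12 TPM in the Trp53 KO library and 11.6 TPM in the control library, a ratio of 0.268 (0.221 to 0.324).

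Sodium-calcium exchangers, the Slc8a family, had no measured member. Slc8a1, the exchanger that removes calcium from heart and many other cells, was listed at 0 in the Trp53 KO library and at 0.724 TPM in the control library, where this long transcript had an estimated 795 reads. With a floor of 3 reads per library Slc8a1 was 78.8-fold lower, which is not a lower bound. Its counting interval allowed a difference as small as 63.9-fold. Both values rest on reads estimated from the transcript length used. Exons of Slc8a1 overlap those of unnamed genes on the opposite strand, of which Gm11096 was listed at 0 in both libraries. Slc8a2 was listed at 0 in Trp53 KO and at 0.0192 TPM in control. Slc8a3 was at 0.0214 TPM from 2 estimated reads in Trp53 KO and at 0.00318 TPM from 1 estimated read in control. Slc8b1, the sodium-calcium exchanger of mitochondria, which lies outside the name family, was at 11.9 TPM in the Trp53 KO library and 4.10 TPM in the control library, a ratio of 2.89 (2.59 to 3.23).

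Genes that work with these transporters were described from 5 lists. Their counts of higher and lower genes stand beside 8.35% higher and 15.3% lower over all measured genes, and each rests on few genes. Of 16 carbonic anhydrases 5 were measured, 3 higher and 0 lower, with a median difference of 1.68. Car2, the abundant cytosolic enzyme, was at 200 TPM in the Trp53 KO library and 45.3 TPM in the control library, a ratio of 4.41 (4.25 to 4.58). Car12, a surface enzyme with its active site outside the cell, was at 41.4 TPM in the Trp53 KO library and 9.75 TPM in the control library, and the cytosolic Car13 was at 8.95 TPM in Trp53 KO and 2.10 TPM in control. The mitochondrial Car5b was at 9.51 TPM in Trp53 KO and 4.83 TPM in control and did not reach 2-fold on the log2(TPM + 1) scale. Car11, which did not pass the filter, was at 0.0357 TPM in Trp53 KO and 1.30 TPM in control and is named here after its values were seen.

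Chloride channels were 1 higher (7.14%) and 3 lower (21.4%) of 14 measured among 18 listed, with a median difference of −0.27. Over all measured genes the shares were 8.35% and 15.3%. Cftr, the cyclic AMP-activated apical channel for chloride and bicarbonate, was at 0.0594 TPM in the Trp53 KO library and 3.68 TPM in the control library, a ratio of 0.0161 (0.00627 to 0.0340). Clcn2, a voltage-gated channel, was at 8.03 TPM in the Trp53 KO library and 38.9 TPM in the control library, and Ttyh3 was at 1.95 TPM in Trp53 KO and 6.88 TPM in control. Ano1, the calcium-activated chloride channel, was at 3.68 TPM in the Trp53 KO library and 1.32 TPM in the control library, a ratio of 2.80 (2.39 to 3.27).

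Subunits and regulators of the sodium pump and related proton pumps were 2 higher and 0 lower of 6 measured among 16 listed. Their median difference was 0.12, and 8.35% of all measured genes were higher. The FXYD proteins are small modulators of the pump. Fxyd4 was at 47.7 TPM in the Trp53 KO library and 8.23 TPM in the control library, Fxyd5 at 2.61 TPM in Trp53 KO and 0.649 TPM in control, and Fxyd3 at 325 TPM in Trp53 KO and 196 TPM in control. The beta subunit gene Atp1b1 was at 175 TPM in the Trp53 KO library and 320 TPM in the control library, short of 2-fold.

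Regulators and scaffolds of the exchangers were 0 higher and 4 lower (23.5%) of 17 measured among 22 listed genes, with a median difference of −0.47. Over all measured genes 15.3% were lower. Apart from Slc9a3r2 above, the lower genes were Tesc, Stk39 and Ahcyl2. Tesc, a calcium-binding protein that binds a sodium-proton exchanger, was at 0.0546 TPM in the Trp53 KO library and 11.6 TPM in the control library. Stk39, a kinase that phosphorylates and activates the Slc12a2 protein, was at 8.92 TPM in Trp53 KO and 44.4 TPM in control. The ratio of Stk39 was 0.201 (0.184 to 0.219). Oxsr1, also on this list, was at 16.5 TPM in Trp53 KO and 14.3 TPM in control. Its ratio was 1.16 (1.09 to 1.23), and it is named here after its values were seen. Ahcyl2, a relative of the IP3 receptor-binding protein that stimulates the Slc4a4 protein, was at 5.88 TPM in the Trp53 KO library and 20.0 TPM in the control library. Of 10 related exchangers outside the name families 2 were measured, Slc8b1 as above and the proton channel gene Hvcn1 at 0.619 TPM in the Trp53 KO library and 1.44 TPM in the control library.

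**Figure D4:**
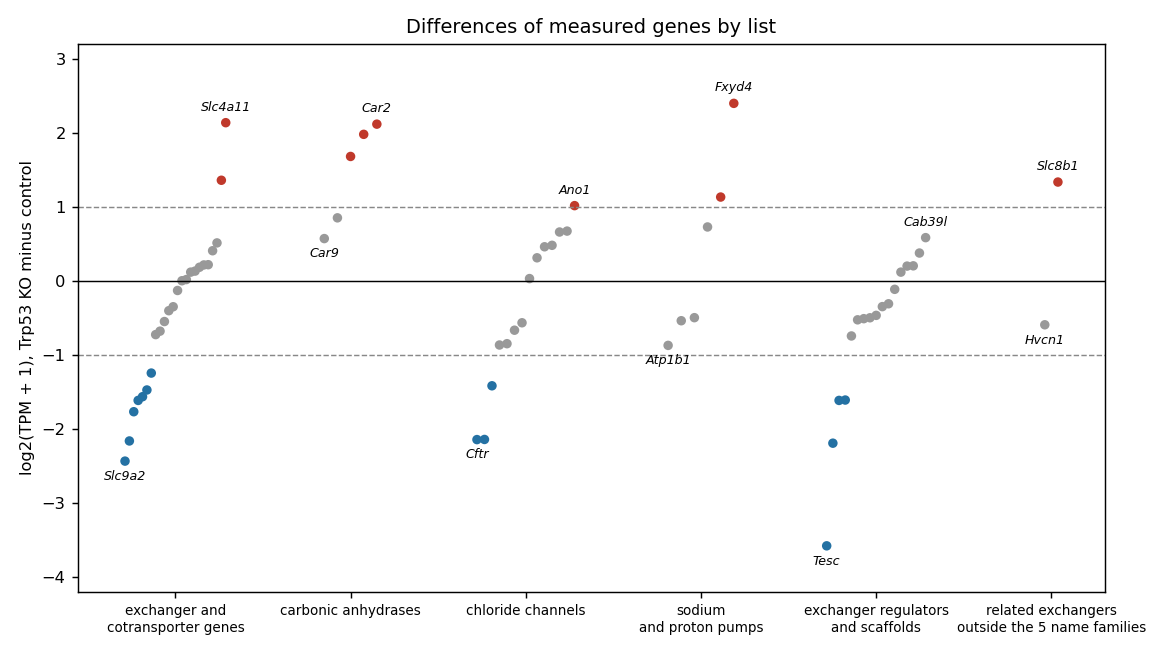
Difference in log2(TPM + 1), Trp53 KO minus control, of each measured gene among the family members and 5 lists of partner genes, in rank order within a list, red for at least 2-fold higher, blue for at least 2-fold lower and grey for neither. The measured carbonic anhydrases all lie above 0, with 3 of 5 above the upper dashed line, and the regulators hold 4 of 17 genes below the lower one, with Tesc the lowest. Slc9a3r2 is plotted both with the family members and with the regulators.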

How the data were processed

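RNA from 1 Trp53 KO and 1 control organoid library was sequenced as 50 bp paired-end reads from strand-preserving libraries, per the labels' protocols. The authors deposited TPM per gene symbol, and each column has the same total. GRCm39 is named as the genome build in the submitters' processing notes. No source used here gives the aligner, the counter, the annotation or the strand setting.

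Read numbers were taken from TPM and the length of the longest protein-coding transcript in GENCODE M21. At 1000 bases 1 read was worth 0.0565 TPM in the Trp53 KO library and 0.0168 TPM in the control library. Of 10218 genes with over 50 reads in both libraries 30.9% came out within 0.02 of a whole number in both. By chance 0.16% would do so. The scale of each library was set on genes with under 50 reads in it. For 8 of the 24 measured members reads were whole in both, and the others are estimates. GENCODE M21 is of an earlier build and gave lengths, chromosomes and exon overlaps only.

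All calculations used Python 3.11.15 with pandas 2.3.3, numpy 2.4.6 and scipy 1.17.1. The counts and the read recovery were checked on simulated reads. The simulation made and recovered reads with the same transcript lengths, so it does not cover lengths that differ from the authors' annotation. The members, the 5 partner lists, the cell type markers and the rules were chosen with earlier results of these data known. Measured members are named except 3, which are not reported here, and in each partner list the 4 genes with the largest differences. Alternatives changed the pseudocount, the filter, the scaling, the threshold and the genes used. No p-value is given.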

Additional observations from a re-analysis of the deposited data

How the results depend on the processing

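No paired analysis was possible because each group has 1 library. None of 312 recomputed differences of 32 named members reversed a called direction. With a pseudocount of 5, higher and lower genes numbered 563 and 930 over all genes and 0 and 4 among the members. By family this setting left 0 higher and 0 lower Slc4a genes, 0 higher Slc26a genes and 1 lower Slc9a gene. The Slc4a11 difference was then 0.98, short of the threshold. With a mean TPM of at least 5, lower genes numbered 1091 and higher members 0, with 0 higher and 0 lower Slc4a genes, 0 higher Slc26a genes and 1 lower Slc9a gene, because Slc4a11, Slc26a9, Slc4a4 and Slc9a2 fall under that filter. At 4-fold, 267 genes were higher and 661 lower, with 1 higher member (Slc4a11) and 2 lower members (Slc9a2 and Slc26a2). This left 0 lower Slc4a, 1 lower Slc9a, 0 lower Slc12a and 0 higher Slc26a genes. A pseudocount of 0.1 gave 2 lower Slc26a genes. Without chromosomes 2 and 4 the members had 1 higher gene and Slc4a had 0, since Slc4a11 lies on chromosome 2. Without the 3 scaffold and associated genes, an alternative chosen after the data were examined, 1 lower Slc9a gene was left. Of 100 recomputed counts of the partner lists 85 stayed within 1.5 times. This share includes counts that were 0 in the main setting and mostly stayed 0, so it says little on the others. Chloride channels, with 1 higher and 3 lower in the main setting, had 0 and 1 with a pseudocount of 5. Depth limits the low genes, since the Trp53 KO library has fewer reads.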
